A study of Homo sapiens with 60 samples.

Results

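HT29 is a human colorectal adenocarcinoma cell line, and the 10 genes described here make and modify its fatty acids: SREBF1, ACLY, ACSS2, ACACA, FASN, SCD, ELOVL6, FADS1, FADS2 and THRSP. They were taken by name from 60675 Ensembl gene IDs, with 1 ID for each symbol, and 8 of the 10 passed the filter on low counts. The study asked how herbal ethanol extracts change the transcriptome of these cells. RNA was sequenced from 60 libraries after 24 h of treatment: 3 libraries of vehicle, which the sample labels give as 0.1% DMSO and the series design as 2%, and 57 libraries of 8 extracts at 3 doses.

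Zizyphi Fructus (jujube fruit), Citri Unshius Pericarpium (mandarin peel), Cimicifugae Rhizoma, Aconiti Lateralis Radix Preparata (processed aconite root) and the multi-herb formulas Yijung-tang and Banhasasim-tang were given at 500, 100 and 20 µg/mL. Coptidis Rhizoma was given at 320, 64 and 12.8 µg/mL and Bupleuri Radix at 310, 62 and 12.4 µg/mL. Per the series design, an extract with a 20% inhibitory concentration under 500 µg/mL was used at that concentration and its dilutions. High, medium and low dose therefore name different concentrations in these extracts. Banhasasim-tang had 1 library at each dose, Yijung-tang, Zizyphi Fructus and Coptidis Rhizoma had 2, and the remaining 4 extracts had 3. No label says whether replicates were separate cultures, so a p-value here weighs a difference against the scatter of these libraries alone, and that scatter may be technical. The first part of the sample codes puts the vehicle libraries in a set of their own. It puts the extracts in 4 other sets of 2 extracts each. All titles carry the same label, BatchD, and no label says what these sets are. A difference from vehicle and a difference between sets therefore cannot be told apart. Comparisons of doses of 1 extract lie within a set and come first below.

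The cells take citrate out of mitochondria, and ACLY cleaves it to acetyl-CoA in the cytosol. ACSS2 makes the same product from acetate. ACACA carboxylates acetyl-CoA to malonyl-CoA, FASN builds palmitate from it, ELOVL6 extends palmitate, and SCD puts the double bond into the saturated chains. FADS1 and FADS2 desaturate polyunsaturated fatty acids, and THRSP is a small protein tied to lipogenesis. SREBF1 encodes SREBP-1, a membrane-bound transcription factor released by proteolysis, which drives transcription of the enzymes and is held back by INSIG proteins when sterols are plentiful. Many carcinoma lines make much of their own fatty acid.

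Depth ran from 18.1M to 36.7M counts per library, with a median of 24.1M. Values below are CPM, counts per 1e6 counts of the library after scaling by TMM factors, which correct for differences in RNA composition. Libraries correlated with the others of their group at 0.9896 or more on log2 CPM, except the Zizyphi Fructus medium-dose pair at 0.944, of which replicate 3 stood apart with a TMM factor of 0.567. The labelled cell type carried the epithelial markers EPCAM, CDH1, KRT8, KRT18, KRT19, KRT20, VIL1 and LGALS4 at a median of 182 CPM or more, with CDX2 at 5.74 and CDX1 at 1.09 CPM. The other-cell markers PTPRC, CD3E, COL1A2, ALB and ADIPOQ never passed 2 counts in a library, and COL1A1, PECAM1 and PLIN1 had medians of 1.28, 1.61 and 0.590 CPM. The share of counts from the mitochondrial ribosomal RNAs MT-RNR1 and MT-RNR2 was 1.11% in vehicle and 10.1%, 6.35% and 1.60% at low, medium and high Coptidis Rhizoma. It was 1.11%, 2.07% and 10.2% at low, medium and high Banhasasim-tang.

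Promoter sequences are shown as a description, and whether their motifs bear on the members' changes was not tested. RefSeq's table for GRCh38.p14 held 9 of the 10 members, without FASN, as windows from 250 bases before to 50 bases after a gene's start. TCACNCCAC, a core of the sterol regulatory element, and CACGTG, the E-box, were in none of the 9 windows on either strand, against 1.15% and 7.43% of all 27305 windows. CCAAT, the NF-Y box, was in 4 of 9 (ACLY, ACSS2, SCD and THRSP) against 35.7% of all windows, and GGGCGG, the GC box, in 7 of 9 against 44.6%; FADS2 and THRSP had no GC box. None of these motifs contains another. RefSeq's starts are not always the starts of the GENCODE 29 gene spans, most of which are given further on. The ACLY, ACSS2, ELOVL6, FADS1 and FADS2 windows lie inside those spans. The SREBF1, ACACA, SCD and THRSP windows run across the start of theirs. Below are the 250 bases before the start of 3 enzyme genes, 5′ to 3′ on the gene's strand, with CCAAT or its reverse complement ATTGG in capitals. ACLY has it 65 and 23 bases before the start (chr17:41919023-41919272, minus strand), ACSS2 123 bases before (chr20:34874739-34874988, plus strand), and SCD 229 and 186 bases before (chr10:100346983-100347232, plus strand).
ACLY: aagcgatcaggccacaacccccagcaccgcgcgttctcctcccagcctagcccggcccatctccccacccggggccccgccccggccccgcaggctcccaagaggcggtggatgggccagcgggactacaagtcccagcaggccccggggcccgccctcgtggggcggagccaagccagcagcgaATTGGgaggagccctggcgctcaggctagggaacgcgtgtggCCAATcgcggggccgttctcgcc
ACSS2: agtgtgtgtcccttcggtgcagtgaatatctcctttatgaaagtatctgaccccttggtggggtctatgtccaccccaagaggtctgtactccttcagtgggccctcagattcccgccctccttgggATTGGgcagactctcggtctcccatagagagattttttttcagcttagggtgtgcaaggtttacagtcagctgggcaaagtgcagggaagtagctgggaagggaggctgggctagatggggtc
SCD: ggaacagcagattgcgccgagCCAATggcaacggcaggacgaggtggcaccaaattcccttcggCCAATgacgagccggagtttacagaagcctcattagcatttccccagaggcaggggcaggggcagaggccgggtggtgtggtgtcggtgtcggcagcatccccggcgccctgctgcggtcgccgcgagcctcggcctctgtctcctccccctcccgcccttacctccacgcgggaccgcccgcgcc

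Per length, SCD was the most abundant member. In vehicle it stood at 310 RPKM, CPM divided by exon length in kilobases, followed by FASN at 110, ACLY at 71.8, ACACA at 39.0, SREBF1 at 19.8, ELOVL6 at 10.1, ACSS2 at 4.25 and FADS1 at 0.533 RPKM. FADS2 and THRSP lay at 0.027 and 0.023 RPKM. FADS2 had 321 counts and THRSP 34 counts over all 60 libraries, with at most 14 and 4 counts in 1 library. Both were left out of the tests, and no direction was read from them. FADS1 lies at chr11:61799625-61829318 on the minus strand and FADS2 at chr11:61792980-61867354 on the plus strand in GENCODE 29 (GRCh38). The spans overlap, and the sources used here give no strand setting for the counting, so reads of the overlap may be split between them.

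High-dose Coptidis Rhizoma lowered all 8 tested members against its low dose, by a median of 0.82 on the log2 scale. FASN fell to 0.428 of its low-dose level, SCD to 0.524 and SREBF1 to 0.728. In bulk RNA fewer expressing cells and less RNA per cell cannot be told apart. Coptidis Rhizoma, the rhizome of Coptis, is known as a source of berberine. Of all 16022 tested genes 28.4% were lower and 27.8% higher in this comparison, with a median of -0.02, so a call alone was common there. Adjusted p-values are from edgeR's quasi-likelihood test with Benjamini-Hochberg adjustment over all tested genes, and a call is an adjusted p under 0.05. Errors on log2 changes are standard errors. Errors on CPM are SDs of the group's libraries, 2 at each Coptidis Rhizoma dose.

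SREBF1 (chr17:17810399-17837002, minus strand) stood at 140 and 141 CPM in the low-dose libraries and at 102 and 102 CPM in the high-dose libraries. Its change was -0.46 ± 0.06 (n = 2 and 2, adjusted p = 4.6e-08 in edgeR's quasi-likelihood test).

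Among the makers of acetyl-CoA, ACLY (chr17:41866908-41930542, minus strand) went from 375 and 381 CPM to 232 and 233 CPM. ACSS2 (chr20:34872146-34927962, plus strand) went from 24.6 and 25.3 CPM to 16.1 and 15.5 CPM. The doses did not overlap for either gene, and the changes were -0.70 ± 0.06 for ACLY and -0.66 ± 0.10 for ACSS2 (edgeR adjusted p = 2.9e-13 and 3e-07).

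ACACA and FASN, the committed step and the synthase, changed most. ACACA (chr17:37084988-37406818, minus strand) stood at 533 and 598 CPM at low and 259 and 264 CPM at high dose. FASN (chr17:82078333-82098332, minus strand) stood at 954 and 968 CPM at low and 409 and 413 CPM at high dose. High-dose libraries were thus below every low-dose library, with changes of -1.11 ± 0.08 for ACACA (edgeR adjusted p = 6.5e-16) and -1.22 ± 0.09 for FASN (edgeR adjusted p = 1.2e-15).

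Of the chain-modifying enzymes, SCD (chr10:100347124-100364834, plus strand) went from 1820 and 1933 CPM to 993 and 971 CPM. ELOVL6 (chr4:110045846-110199199, minus strand) went from 78.1 and 78.7 CPM to 40.9 and 38.8 CPM. Their changes were -0.93 ± 0.06 (edgeR adjusted p = 6.2e-17) and -0.98 ± 0.06 (edgeR adjusted p = 4.2e-17). FADS1, the scarcest tested member, had 5.42 and 6.45 CPM at low and 4.87 and 4.87 CPM at high dose. Its change of -0.29 ± 0.12 (edgeR adjusted p = 0.043) was the weakest call, and DESeq2 gave an adjusted p of 0.10. Without Coptidis Rhizoma low replicate 3 its change was -0.15 (edgeR adjusted p = 0.46), and it also lost the call without high replicate 2 (0.15) and without high replicate 3 (0.14). Scaling by library size alone gave -0.16 (edgeR adjusted p = 0.47).

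Members were called from medium to high dose and not from low to medium dose. At medium dose FASN stood at 877 and 861 CPM and SREBF1 at 154 and 147 CPM. Between low and medium dose FASN, ACLY, SCD and ELOVL6 changed by -0.14 ± 0.09, -0.12 ± 0.06, -0.10 ± 0.06 and -0.04 ± 0.06 (edgeR adjusted p = 0.69, 0.58, 0.69 and 0.98). The change was -0.11 for ACACA, 0.10 for SREBF1 and 0.04 for ACSS2. From medium to high dose 8 of 8 members fell, with a median of -0.77, where 26.7% of all genes were lower: FASN changed by -1.08 ± 0.09 (edgeR adjusted p = 6e-14) and SREBF1 by -0.56 ± 0.06 (edgeR adjusted p = 5.7e-10). From low to medium dose edgeR called 0 of 8 members, 0 had an unadjusted p under 0.05 and DESeq2 called 0, while 1.35% of all genes were called. The largest such member value was FADS1's 0.17 ± 0.12 (edgeR adjusted p = 0.77).

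**Figure D1:**
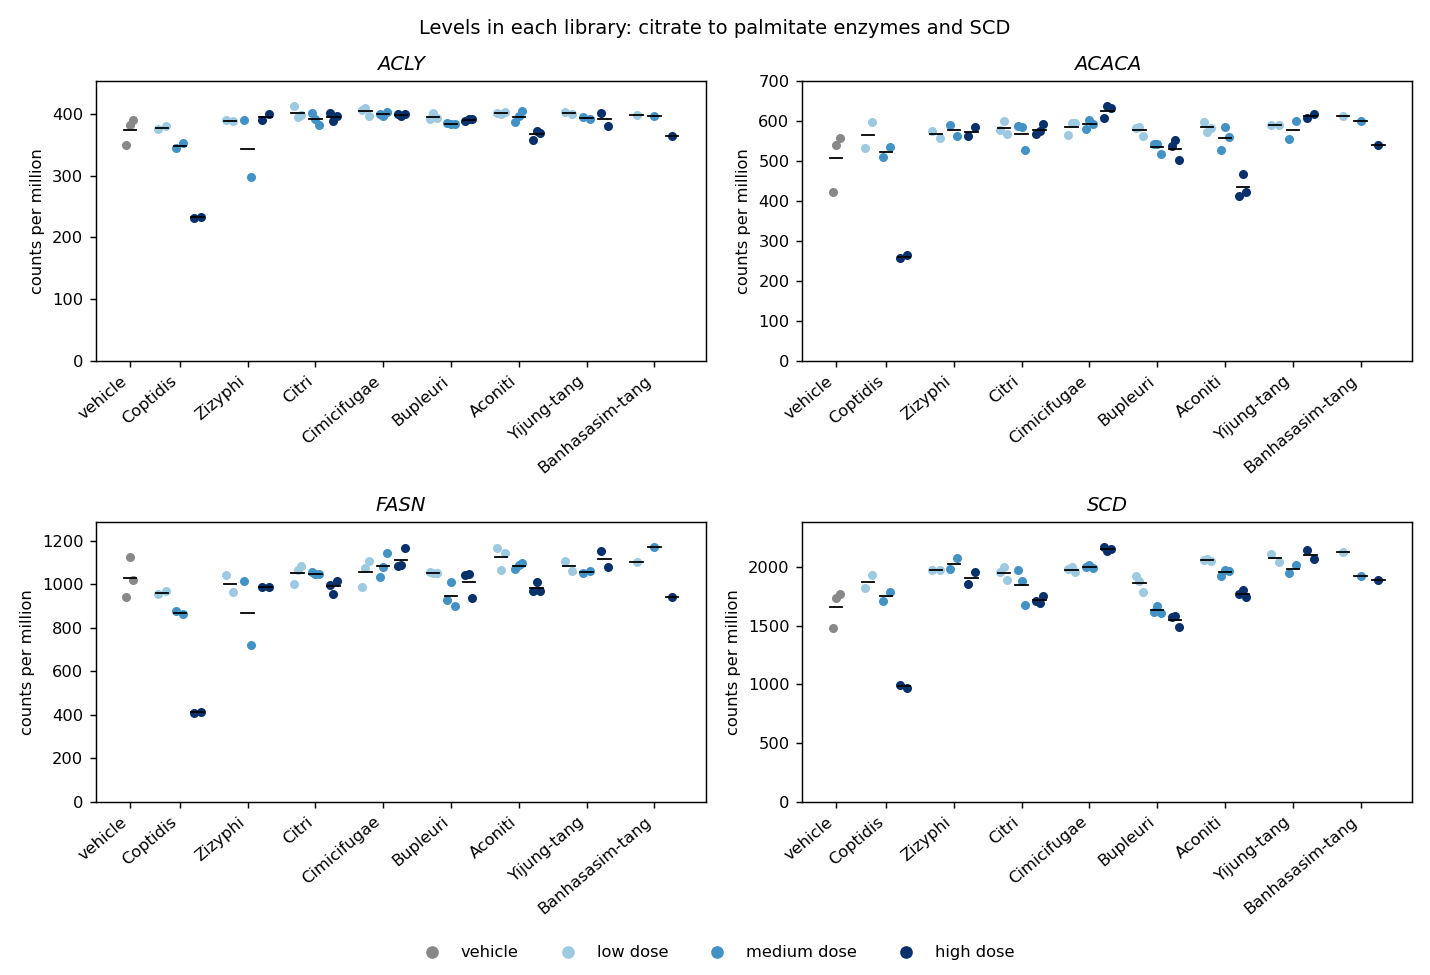
CPM (vertical axes, from 0) of ACLY, ACACA, FASN and SCD in each of the 60 libraries, by extract and dose; points are libraries and bars are group means. High-dose Coptidis Rhizoma stands lowest in every panel, with FASN at 409 and 413 CPM, and Zizyphi Fructus medium replicate 3 stands apart for FASN at 721 CPM.

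Other features moved with the same comparison. The mitochondrial rRNA share was 10.1% at low and 1.60% at high dose, and with these rRNAs left out of the scaling the same number of members, 8, was called. Of 10 colorectal epithelium markers 3 rose and 5 fell, with VIL1 at -1.08 ± 0.05 and KRT20 at 0.52 ± 0.04. Over all genes 27.8% were higher and 28.4% lower. Of 8 other-cell markers 3 passed the filter and PECAM1 fell by 3.03 on the log2 scale, while PTPRC, CD3E, COL1A2, ALB and ADIPOQ were at or near 0. Their part in the members' fall was not tested. The high dose, at 320 µg/mL, is under 500 µg/mL and so was set by inhibition, per the series design.

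Of the related lists the sterol branch, which shares SREBP control, had 8 of 8 tested genes lower, with a median of -1.16. Over all genes 28.4% were lower and 27.8% higher in this comparison. HMGCS1, a first step of the mevalonate route, fell by 1.95 ± 0.10 and SQLE, the squalene oxidising enzyme, by 1.53 ± 0.06. Among 12 tested genes of SREBP control 5 rose and 4 fell, with a median of -0.01. INSIG1 fell from 151 ± 5.93 to 39.7 ± 0.414 CPM, a log2 change of -1.92 ± 0.06 (edgeR adjusted p = 2e-26), whereas INSIG2, its relative, rose by 0.87 ± 0.07. NR1H2, a liver X receptor, rose by 0.76 ± 0.15.

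Precursor supply and acyl-CoA genes had 3 higher and 3 lower of 10, with a median of -0.06. In this list and those that follow in this paragraph, such counts lie near the shares over all genes, 27.8% higher and 28.4% lower. SLC25A1, the mitochondrial citrate carrier that feeds ACLY, fell from 201 ± 10.1 to 85.3 ± 0.492 CPM (-1.24 ± 0.18, edgeR adjusted p = 1.8e-07). ME1, a cytosolic source of NADPH, rose by 0.89 ± 0.07, and MID1IP1, a THRSP relative, rose by 0.60 ± 0.16. Of 9 other elongation and desaturation genes 2 rose and 2 fell, with a median of -0.12. FADS3, a relative of FADS1, rose from 17.1 ± 1.56 to 47.0 ± 1.03 CPM (1.46 ± 0.12), whereas HACD3 and TECR, of the elongation cycle, fell by 0.89 ± 0.06 and 0.55 ± 0.09. Of 9 glycerolipid genes 3 rose and 3 fell, with a median of 0.08. The triglyceride makers DGAT2 and DGAT1 fell by 1.06 ± 0.15 and 0.91 ± 0.08, and the phosphatidate phosphatase LPIN2 rose by 0.64 ± 0.10. All of these named genes passed the threshold.

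**Figure D2:**
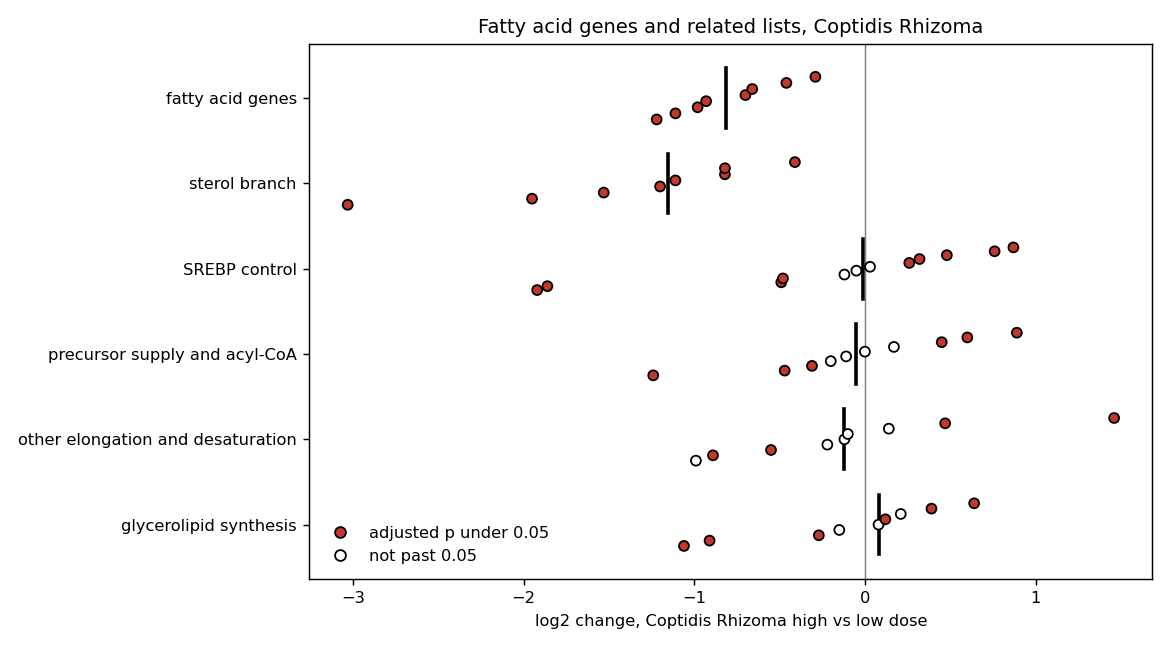
Log2 change between low-dose and high-dose Coptidis Rhizoma (horizontal axis) for the tested members and genes of 5 related lists (rows); filled points passed an adjusted p under 0.05 and bars are list medians. The members and the sterol branch lie wholly below 0, with medians of -0.82 and -1.16, and the other lists spread to both sides.

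Bupleuri Radix, the root of Bupleurum, lowered 3 of 8 members from low to high dose, ACSS2, SCD and SREBF1, where 6.59% of all genes were lower and 6.34% higher. The members' median was -0.18, against -0.01 over all genes. ACSS2 stood at 23.0, 23.8 and 24.9 CPM at low and 17.1, 15.2 and 17.7 CPM at high dose. SCD stood at 1923, 1882 and 1785 CPM at low and 1570, 1582 and 1493 CPM at high dose. SREBF1 stood at 136, 135 and 139 CPM at low and 117, 118 and 112 CPM at high dose. The doses did not overlap for any of the 3 genes, with changes of -0.52 ± 0.08, -0.27 ± 0.05 and -0.25 ± 0.05 (edgeR adjusted p = 5.8e-06, 7.9e-05 and 0.00048). FASN, at -0.06 ± 0.07, and ACLY, at -0.02 ± 0.05, did not pass (edgeR adjusted p = 0.67 and 0.87). Their doses did not overlap either, nor did those of ACACA and ELOVL6, which were not called. For this and every other extract, the share of all genes whose doses did not overlap was not counted.

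In the sterol branch 2 genes rose and 1 fell of 8, with a median of 0.12, where 6.34% of all genes were higher and 6.59% lower. SQLE rose by 0.21 ± 0.04. Of the precursor list 3 rose and 2 fell of 10, with ME1 at 0.43 ± 0.06, ACSL5, a long-chain acyl-CoA synthetase, at 0.34 ± 0.03 and ACACB, the mitochondrial relative of ACACA, at -0.45 ± 0.15. FADS3 rose by 0.52 ± 0.10 and ELOVL7, an elongase, by 0.32 ± 0.08, the 2 called of 9 in that list. In glycerolipid synthesis DGAT2 fell by 0.51 ± 0.12 and AGPAT2 and LPIN1 rose by 0.29 ± 0.10 and 0.19 ± 0.06, 3 called of 9. In SREBP control 1 of 12 was called, MLX at 0.14 ± 0.05.

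Aconiti Lateralis Radix Preparata lowered 4 of 8 members from low to high dose, ACACA, ACSS2, ELOVL6 and SCD, where 2.23% of all genes were lower. The members' median was -0.21, against 0.01 over all genes. ACACA went from 598, 574 and 583 CPM to 413, 467 and 424 CPM. ELOVL6 went from 80.6, 78.1 and 81.8 CPM to 67.1, 71.5 and 66.4 CPM. SCD went from 2060, 2069 and 2055 CPM to 1774, 1801 and 1741 CPM. Each high-dose library lay below each low-dose library for these genes, with changes of -0.43 ± 0.06, -0.23 ± 0.05 and -0.22 ± 0.05 (edgeR adjusted p = 6.7e-06, 0.0026 and 0.0042). ACSS2 changed by -0.33 ± 0.08 (edgeR adjusted p = 0.0086), and without Aconiti Lateralis Radix Preparata high replicate 3 by -0.31 (0.069). FASN, at -0.19 ± 0.07, did not pass in edgeR (adjusted p = 0.16) although its high-dose libraries, at 971, 1011 and 968 CPM, all lay below the lowest low-dose library, at 1067 CPM. The doses of ACSS2 and ACLY did not overlap either, and ACLY was not called. Without the Zizyphi Fructus library that stands apart, which enters the spread shared by all groups, 6 of 8 members were called, with ACLY at -0.13 (edgeR adjusted p = 0.0021) and FASN at -0.20 (0.0092), and the genes called in all went from 434 to 1009. In the related lists 2 genes were called, FDFT1, a sterol branch enzyme, at -0.20 ± 0.05 and AGPAT3 at -0.15 ± 0.04.

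ACSS2 was called lower from low to high dose in 5 of 8 extracts and had a negative change in all 8, ranging from -0.08 ± 0.10 with Zizyphi Fructus to -0.66 ± 0.10 with Coptidis Rhizoma. How many of all genes shared this pattern across extracts was not counted. ACSS2 was the 1 member called with Citri Unshius Pericarpium and with Yijung-tang. With Citri Unshius Pericarpium it went from 27.8, 24.0 and 25.2 CPM to 19.0, 16.5 and 18.0 CPM, a change of -0.52 ± 0.08 (edgeR adjusted p = 0.00017), where 0.125% of all genes were lower. Without the Zizyphi Fructus library that stands apart SCD, at -0.18, was called too with Citri Unshius Pericarpium (edgeR adjusted p = 0.025), and the genes called in all went from 23 to 229. With Yijung-tang ACSS2 went from 25.6 and 26.9 CPM to 20.3 and 17.3 CPM, a change of -0.48 ± 0.10 (edgeR adjusted p = 0.014), where 0.119% of all genes were lower. The Yijung-tang call was lost without high replicate 2 (change -0.37, edgeR adjusted p = 0.65), without low replicate 2 (-0.44, 0.29) and without low replicate 1 (-0.52, 0.089). Scaling by library size alone gave changes of -0.53, -0.51 and -0.31 with Citri Unshius Pericarpium, Yijung-tang and Aconiti Lateralis Radix Preparata and ended each of these calls (edgeR adjusted p = 0.12, 0.38 and 0.38).

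With the other 3 extracts no member was called from low to high dose. With Zizyphi Fructus edgeR called 0 of 8 members, 0 had an unadjusted p under 0.05 and DESeq2 called 0, and 0% of all genes were lower. With Cimicifugae Rhizoma edgeR and DESeq2 called 0 and 2 members had an unadjusted p under 0.05, where 0.437% of all genes were lower. Those 2 were SCD at 0.12 ± 0.05, whose libraries lay at 1957 to 1997 CPM at low and 2141 to 2170 CPM at high dose without overlap, and ACSS2 at -0.20 ± 0.08. The doses of ACSS2, SREBF1 and ACACA did not overlap either. With Banhasasim-tang edgeR and DESeq2 called 0 and 1 had an unadjusted p under 0.05, ACSS2, at 28.9 CPM at low and 21.8 CPM at high dose (-0.41 ± 0.14, edgeR adjusted p = 0.16), where 0.693% of all genes were lower. Each Banhasasim-tang dose is 1 library, which is taken to vary as libraries elsewhere in the series do.

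**Figure D3:**
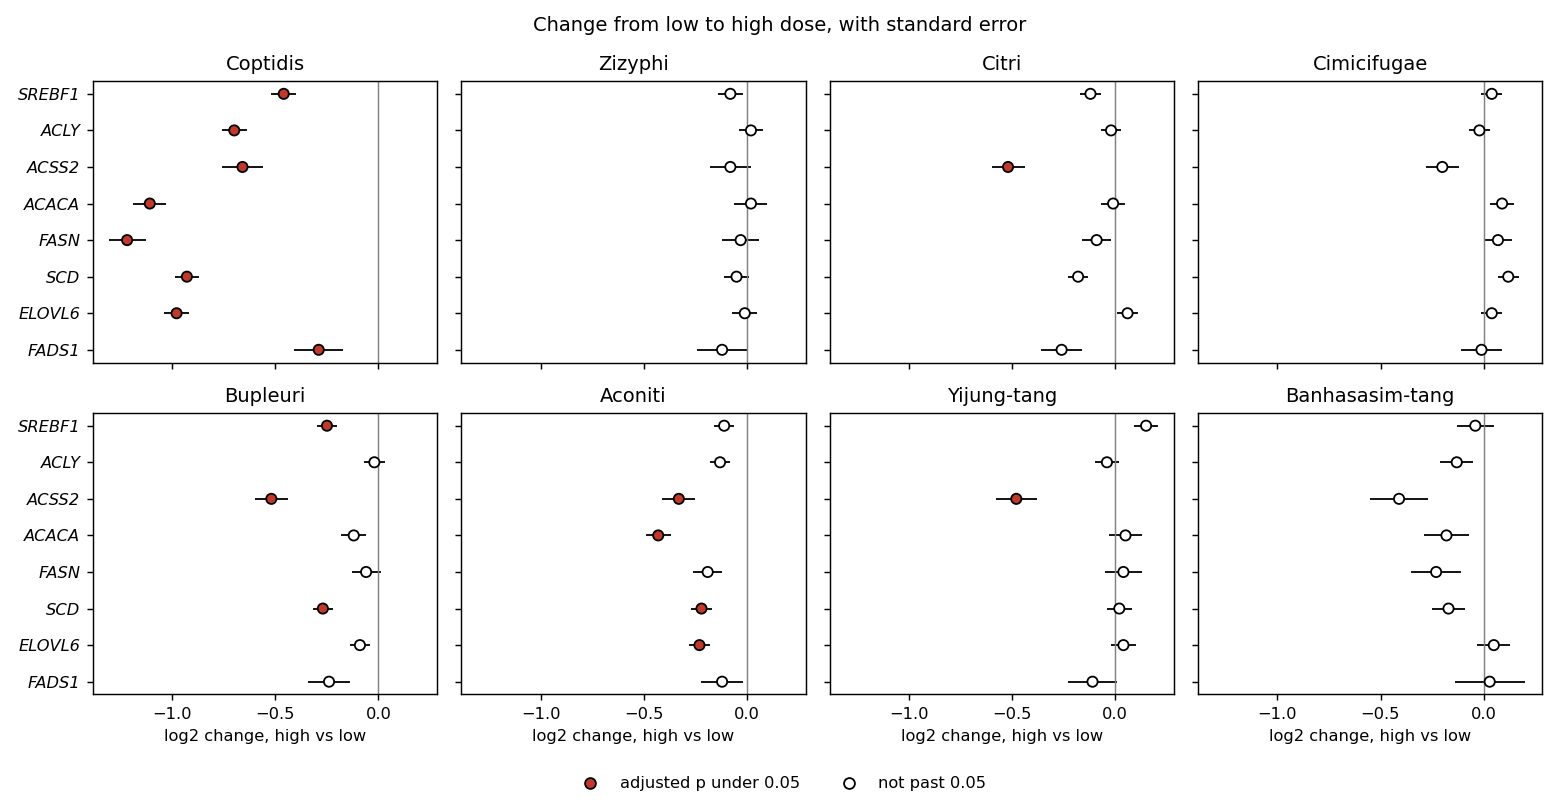
Log2 change from low to high dose (horizontal axes, with standard error) of the 8 tested members (rows) in each of 8 extracts (panels, named by first word); filled points passed an adjusted p under 0.05. All 8 members are filled with Coptidis Rhizoma, where FASN stands at -1.22, and ACSS2 is filled in 5 panels.

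The larger fall with Coptidis Rhizoma was tested as a difference between extracts in the change from low to high dose, although concentrations differ between them. Against Zizyphi Fructus, which shares its library set, 7 of 8 members fell more, where 21.8% of all genes had a lower change. Against Cimicifugae Rhizoma and Aconiti Lateralis Radix Preparata 7 members fell more in each (background 22.9% and 23.7%). Against Citri Unshius Pericarpium, Bupleuri Radix, Yijung-tang and Banhasasim-tang 6 fell more in each (background 24.2%, 23%, 22% and 17.2%). FADS1 was in none of these counts, and ACSS2 passed only against Zizyphi Fructus, Cimicifugae Rhizoma and Aconiti Lateralis Radix Preparata. Both of the calls that follow were lost with no filter on low counts and without any 1 of the 4 low-dose and high-dose Coptidis Rhizoma libraries. ACSS2's difference from Aconiti Lateralis Radix Preparata, at -0.33, was also lost without that extract's high replicate 1 or low replicate 3, in 6 of 10 cases in all (edgeR adjusted p = 0.069 with no filter). SREBF1's difference from Bupleuri Radix, at -0.21, was also lost without that extract's high replicate 1, high replicate 2 or low replicate 2, in 7 of 10 cases in all (edgeR adjusted p = 0.16 with no filter). FASN fell further with Coptidis Rhizoma than with Bupleuri Radix by 1.16 ± 0.11 (edgeR adjusted p = 1.3e-11), while for ACSS2 this difference was -0.14 ± 0.13 (edgeR adjusted p = 0.39).

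In the other library sets 2 members were called between extracts. SCD's change was lower with Citri Unshius Pericarpium than with Cimicifugae Rhizoma by -0.31 ± 0.07 (edgeR adjusted p = 0.038), the 1 member called, where 0.181% of all genes were lower. ACACA's change was higher with Bupleuri Radix, at -0.12 ± 0.06, than with Aconiti Lateralis Radix Preparata, at -0.43 ± 0.06. That difference was 0.31 ± 0.09 (edgeR adjusted p = 0.021), the 1 member called, where 4.59% of all genes were higher. Both calls were lost when single libraries were left out, the first in 11 of 12 cases and the second in 5 of 12. Between Yijung-tang and Banhasasim-tang edgeR called 0 members, 0 had an unadjusted p under 0.05 and DESeq2 called 0, where 0.462% of all genes were called.

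At medium against low dose edgeR called members with Zizyphi Fructus alone, 3 of 8, where 31.4% of all genes were called. These were SREBF1 at 0.16 ± 0.06, ELOVL6 at 0.17 ± 0.06 and ACLY at -0.18 ± 0.06. They rest on medium replicate 3, the library that stands apart: SREBF1 had 177 CPM there and 149 CPM in replicate 2, and ACLY 297 and 391 CPM. Without it 0 of 8 members and 0 of all genes were called, and ACLY's change was 0.01. The count was also 0 without low replicate 2 and without low replicate 3. With Citri Unshius Pericarpium, Cimicifugae Rhizoma, Bupleuri Radix, Aconiti Lateralis Radix Preparata, Yijung-tang and Banhasasim-tang edgeR and DESeq2 called 0 members, with 1, 0, 3, 0, 0 and 0 at an unadjusted p under 0.05. The calls over all genes were 0%, 0.00624%, 0%, 0%, 0% and 0.025%. With Bupleuri Radix 1 member was called without medium replicate 1.

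Vehicle did not rank alike for all members. SREBF1's vehicle mean of 159 ± 8.49 CPM (SD, n = 3) ranked 3 of 25 groups, and 22 of 24 treated groups were lower. SCD, at 1661 ± 161 CPM, ACACA, at 507 ± 74.4 CPM, and ELOVL6, at 73.4 ± 5.28 CPM, were near the bottom, with 21, 22 and 22 treated groups higher. Every one of these positions rests on the same 3 vehicle libraries. Low-dose changes against vehicle ran from -0.22 to -0.09 for SREBF1 and from 0.17 to 0.36 for SCD. Vehicle replicate 1 was the lowest vehicle library for SCD, at 1477 CPM against 1733 and 1774 CPM, and for ACACA, at 422 CPM against 541 and 559 CPM.

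High-dose Coptidis Rhizoma was lower than vehicle in 7 of 8 members, FADS1 excepted. Of all genes 62.9% were called there, and this share and those that follow count both directions. FASN was at -1.33 ± 0.08 (edgeR adjusted p = 9.3e-18) and SREBF1 at -0.64 ± 0.06 (edgeR adjusted p = 1.2e-12). Bupleuri Radix had 2 of 8 lower, SREBF1 at -0.46 ± 0.05 and ACSS2 at -0.46 ± 0.08, a share close to the 27% of all genes called. Aconiti Lateralis Radix Preparata had 2 lower, ACACA at -0.22 ± 0.06 and SREBF1 at -0.20 ± 0.05 (17.3%), which became 0 without vehicle replicate 2, while ACACA also lost the call without high replicate 1 and without vehicle replicate 3 (-0.15, edgeR adjusted p = 0.11). Citri Unshius Pericarpium had SREBF1 and ACSS2 lower and ELOVL6 and ACACA higher (13.2%). Its ACACA value of 0.19 was 0.07 without vehicle replicate 1 (edgeR adjusted p = 0.55) and also lost the call without any 1 of the high-dose libraries. Cimicifugae Rhizoma had SCD, ACACA and ELOVL6 higher (18%), with SCD at 0.37 ± 0.05 (edgeR adjusted p = 1e-06). Without vehicle replicate 1 its ACACA value went from 0.30 to 0.19, and ELOVL6 lost the call, at 0.13 (edgeR adjusted p = 0.11). Yijung-tang had SCD, ACACA and ELOVL6 higher and ACSS2 lower (7.65%), which became 1 without vehicle replicate 1 and without high replicate 1 or high replicate 2. Zizyphi Fructus had SCD higher and SREBF1 lower (6.9%), which became 0 without vehicle replicate 1 or high replicate 3 and 1 without vehicle replicate 2 or high replicate 2. With Banhasasim-tang edgeR and DESeq2 called 0 members, 3 had an unadjusted p under 0.05 and 7.6% of all genes were called; without vehicle replicate 3 it was 1 member. Without the Zizyphi Fructus library that stands apart the counts were 3 with Banhasasim-tang and 5 with Cimicifugae Rhizoma, in place of 0 and 3. These comparisons share the 3 vehicle libraries, and leaving out 1 library moved the genes called in all from 1106 to between 91 and 1862 with Zizyphi Fructus, from 2116 to between 458 and 2806 with Citri Unshius Pericarpium, from 1225 to between 226 and 1948 with Yijung-tang, from 2881 to between 945 and 3469 with Cimicifugae Rhizoma and from 2774 to between 1242 and 3083 with Aconiti Lateralis Radix Preparata.

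Over all groups high-dose Coptidis Rhizoma had the lowest mean of each of the 8 tested members. Its libraries lay below every library of the next lowest group for SREBF1, ACLY, ACACA, FASN, SCD and ELOVL6, and overlapped it for ACSS2 (16.1 against 15.2 CPM, Bupleuri Radix high dose) and FADS1 (4.87 against 4.46 CPM, Citri Unshius Pericarpium medium dose). SREBF1's next lowest group was high-dose Bupleuri Radix at 115 CPM, apart from its neighbours. High-dose Citri Unshius Pericarpium and medium-dose Bupleuri Radix followed, both at 128 CPM, and overlapped each other. At the top, SCD was highest with high-dose Cimicifugae Rhizoma, at 2154 CPM, and FASN with the medium-dose Banhasasim-tang library, at 1171 CPM. Most neighbours in these orders overlapped. Of 24 neighbouring pairs 5 did not overlap for SREBF1, 5 for ACLY, 4 for FASN and 4 for ELOVL6. For SCD it was 3, for ACACA 2, for ACSS2 1 and for FADS1 1. These counts include pairs with a group of 1 library, which has no range and so overlaps less readily. The share over all genes was not counted.

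**Figure D4:**
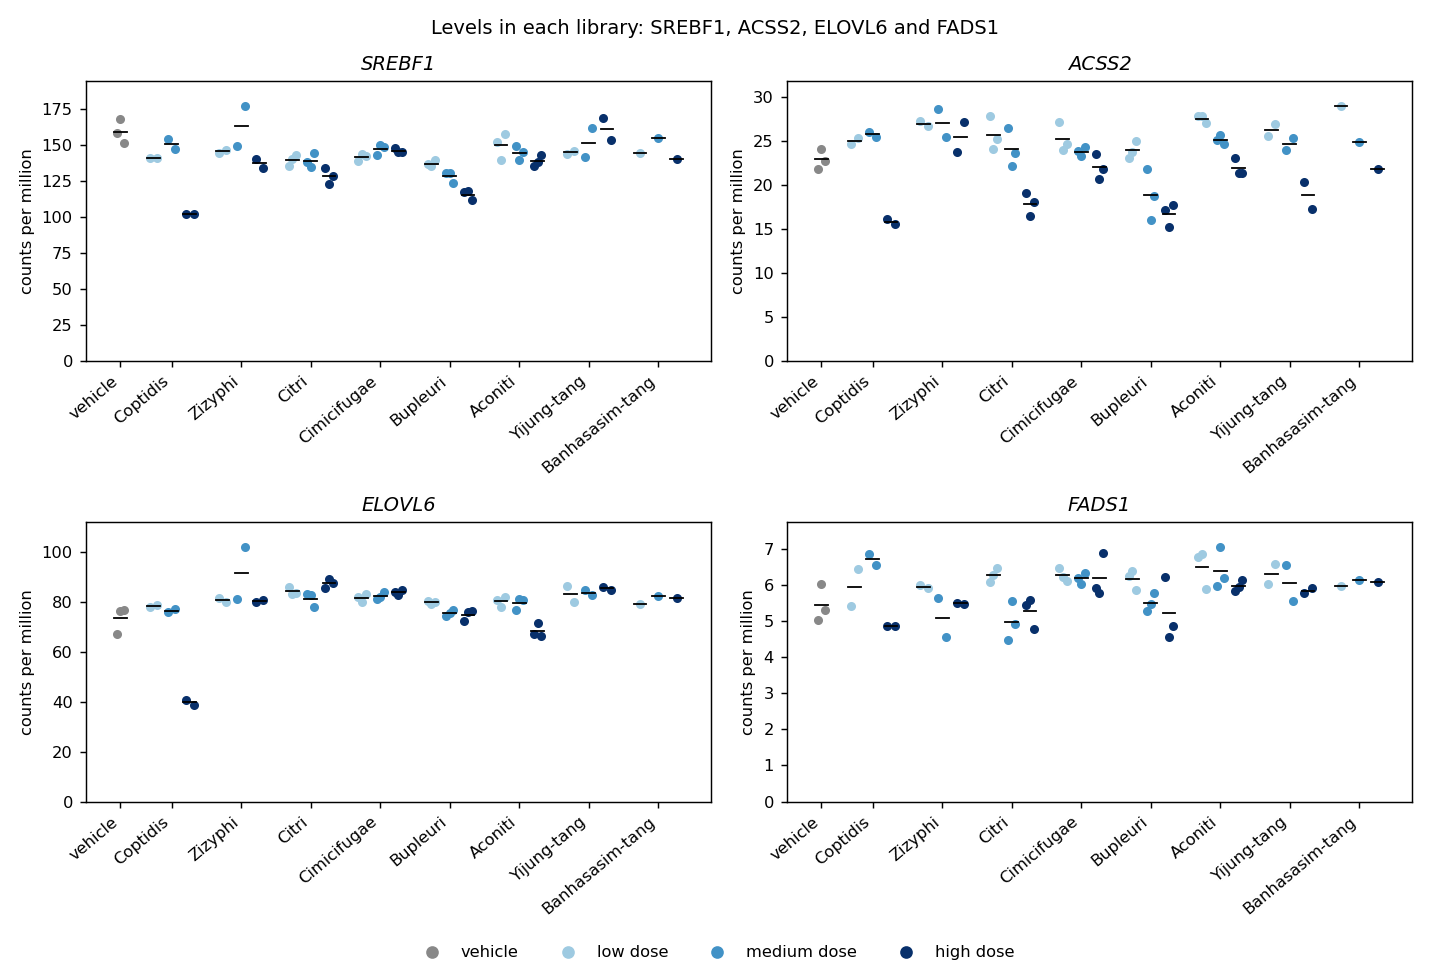
CPM (vertical axes, from 0) of SREBF1, ACSS2, ELOVL6 and FADS1 in each of the 60 libraries, by extract and dose; points are libraries and bars are group means. ACSS2 is lower at high than at low dose in the mean of every extract, SREBF1 is lowest with high-dose Coptidis Rhizoma at 102 CPM, and FADS1 spreads widely within groups.

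The pattern across doses was described by Pearson's r over the mean log2 CPM of the 24 treated groups, each centred on its extract's mean, as a description with no p. Doses of an extract were centred on a shared mean, so the groups are not independent points. Each r is also given over the 21 groups without Coptidis Rhizoma, whose high dose had the lowest mean of each tested member. RAB11A at r = 0.975 and SFXN5 at 0.974 were among the 3 genes most like FASN, and without Coptidis Rhizoma these were 0.879 and 0.769. SCD was most like CLDN2 at 0.952, SH3PXD2A at 0.951 and SLC4A4 at 0.950, which became 0.723, 0.710 and 0.684. SREBF1 was most like NECTIN1 at 0.934, OLMALINC at 0.928 and CPNE2 at 0.918, which became 0.892, 0.852 and 0.791. Among the members themselves FASN and ACLY stood at 0.98, and at 0.85 over the 21 groups without Coptidis Rhizoma. SREBF1 and FASN stood at 0.76 and went to 0.19, and FASN and ELOVL6 at 0.89 and went to 0.04.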

How the data were processed

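RNA-seq of HT29 cells was analysed from 60 libraries. The authors deposited a table of unscaled expected counts, made with STAR 2.7.3a and RSEM 1.3.3 after FastQC 0.11.9 and Trim Galore 0.6.5 on GRCh38, per the submitters' processing notes. The sources used here name no annotation. Of 270 columns 210 were not analysed here. Of the values 91% were whole, and all were rounded, which changed a library's total by at most 0.00022%. Symbols were found for 93.2% of IDs, and 94% of IDs were in GENCODE 29, which gave coordinates and exon lengths.

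The 16022 genes that reached 0.5 CPM in 3 or more libraries were tested in edgeR 4.0.16 (R 4.3.3) with TMM scaling and a quasi-likelihood model of 25 group means, leaving 35 residual degrees of freedom. All groups shared the spread (biological coefficient of variation 7.83%), the Benjamini-Hochberg threshold was 0.05, and the fit was tested on simulated data. DESeq2 1.42.0, other scalings and filters, the compared groups alone, a replicate block and leaving out libraries were alternatives. The comparison of high with medium Coptidis Rhizoma was added after seeing the data, as was leaving MT-RNR1 and MT-RNR2 out of the scaling. Members and lists were chosen with earlier results of these data known. All members are named, as are up to 3 called genes per list with the largest change whose mean log2 CPM was 1 or more, for Coptidis Rhizoma, Bupleuri Radix and any other extract with 3 or more members called, plus the 3 genes most like FASN, SCD and SREBF1. Some genes that this rule names are not reported here. The lists are SREBP control, precursor supply and acyl-CoA, other elongation and desaturation, glycerolipid synthesis, the sterol branch and 2 marker lists. Depth was 18.1M to 36.7M counts per library.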

Additional observations from a re-analysis of the deposited data

Results flagged for a closer look

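Differences between extracts in the change from low to high dose were tested as interactions. The number of members whose change was more negative with Coptidis Rhizoma at an adjusted p under 0.05 (edgeR) was 7 against Zizyphi Fructus, 6 against Citri Unshius Pericarpium, 7 against Cimicifugae Rhizoma, 6 against Bupleuri Radix, 7 against Aconiti Lateralis Radix Preparata, 6 against Yijung-tang and 6 against Banhasasim-tang, where 17.2% to 24.2% of all genes were lower in the same way. SREBF1, ACLY, ACACA, FASN, SCD and ELOVL6 were in all 7 counts, SREBF1's against Bupleuri Radix being lost in 7 of 10 cases when single libraries were left out. Between Citri Unshius Pericarpium and Cimicifugae Rhizoma 1 member differed, SCD at -0.31, where 0.181% of all genes were lower. Between Bupleuri Radix and Aconiti Lateralis Radix Preparata 1 member differed, ACACA at 0.31, where 4.59% of all genes were higher. Both calls were lost with no filter on low counts (edgeR adjusted p = 0.39 and 0.058). With single libraries left out, SCD's was lost in 11 of 12 cases and ACACA's in 5 of 12. Doses differ in µg/mL for Coptidis Rhizoma and Bupleuri Radix, so these values compare dose series, not concentrations.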

How the results depend on the processing

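Counts here are members called of 8 tested. From low to high dose Citri Unshius Pericarpium went from 1 to 2 with the DESeq2 test, with the compared groups alone, with the replicate block and without the Zizyphi Fructus medium library that stands apart, and to 0 with library size alone. Aconiti Lateralis Radix Preparata went from 4 to 1 with library size alone and 2 with no filter, and Yijung-tang from 1 to 0 with library size alone. At high dose against vehicle, the compared groups alone gave 1 for Aconiti Lateralis Radix Preparata, 1 for Cimicifugae Rhizoma, 0 for Yijung-tang and 0 for Zizyphi Fructus. Library size alone gave 0 for Aconiti Lateralis Radix Preparata, 2 for Citri Unshius Pericarpium, 1 for Yijung-tang and 0 for Zizyphi Fructus, and no filter 2 for Yijung-tang and 0 for Zizyphi Fructus. Without the library that stands apart Banhasasim-tang gave 3 and Cimicifugae Rhizoma 5. At medium against low dose the compared groups alone gave 1 for Bupleuri Radix, and Zizyphi Fructus gave 0 with the compared groups alone, with no filter and without the library that stands apart, where ACLY's change was 0.01 (-0.39 to 0.01 when each library was left out). For Bupleuri Radix minus Aconiti Lateralis Radix Preparata the compared groups alone gave 2 and no filter 0, and for Citri Unshius Pericarpium minus Cimicifugae Rhizoma no filter gave 0. The causes of these changes were not tested. Fits of the compared groups alone or without a library used fewer samples, and the fit with no filter used more genes.

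Leaving out each library gave 7 to 8 members for Coptidis Rhizoma from low to high dose, 8 from medium to high and 7 against vehicle. From low to high it gave 1 for Citri Unshius Pericarpium, 3 to 4 for Bupleuri Radix and for Aconiti Lateralis Radix Preparata, and 0 to 1 for Yijung-tang. Against vehicle it gave 0 to 3 for Zizyphi Fructus, 3 to 4 for Citri Unshius Pericarpium, 2 to 4 for Cimicifugae Rhizoma, 2 to 3 for Bupleuri Radix, 0 to 3 for Aconiti Lateralis Radix Preparata, 1 to 4 for Yijung-tang and 0 to 1 for Banhasasim-tang. At medium against low it gave 0 to 4 for Zizyphi Fructus and 0 to 1 for Bupleuri Radix, and for both differences between other extracts 0 to 1. For Coptidis Rhizoma minus Bupleuri Radix it gave 5 to 6 and minus Aconiti Lateralis Radix Preparata 6 to 7. Changes in these member counts were not tested apart from changes in calls over all genes. From low to high dose, leaving out each library gave 9 to 23 genes in all with Citri Unshius Pericarpium. It gave 1540 to 1638 with Bupleuri Radix and 269 to 395 with Aconiti Lateralis Radix Preparata. For Citri Unshius Pericarpium minus Cimicifugae Rhizoma it gave 24 to 36, and for Bupleuri Radix minus Aconiti Lateralis Radix Preparata 1029 to 1244. Some counts over all genes moved more than 1.5 times. Without the library that stands apart they went, from low to high dose, from 2071 to 3624 with Bupleuri Radix, 140 to 378 with Cimicifugae Rhizoma, 277 to 611 with Banhasasim-tang and 33 to 163 with Yijung-tang. Against vehicle it gave 3015 to 6427 in place of 1106 to 4331 for the extracts other than Coptidis Rhizoma, and from low to medium Coptidis Rhizoma 629 in place of 216. With the compared groups alone Yijung-tang against vehicle went from 1225 to 25 and Zizyphi Fructus from 1106 to 12.

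Same-numbered libraries correlated at -0.09 to 0.13 in their deviations. Between high and low dose these values were 0.02 to 0.13 with Citri Unshius Pericarpium, Cimicifugae Rhizoma and Bupleuri Radix. With the other replicated extracts they were -0.03 to 0.01. Low values like these cannot settle whether the numbers pair samples. From low to high Coptidis Rhizoma FADS1 lost its call with the replicate block (edgeR adjusted p = 0.056), the compared groups alone (0.089), no filter (0.21) and library size alone (0.47), leaving 7 of 8. The compared groups alone could not be fitted for Banhasasim-tang doses, which are 1 library each. FADS2 and THRSP are limited by depth: 3 counts correspond to 0.081 CPM in the deepest library.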
